A study of Rattus norvegicus with 3 samples.

Results

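The genes described here form the actin cytoskeleton of the cell and the contractile and adhesive structures attached to it. They were taken from a list of 49 gene symbols, and a gene was kept where the platform annotation gave at least 1 probe set to its symbol alone. This left 45 genes with 91 probe sets, out of 14218 genes and 31099 probe sets on the array. Actb, Cfl1, Myl6 and Tmsb10 were skipped, because their probe sets were annotated together with other genes. Expression was read in granulosa cells, the hormone-producing cells around the oocyte, which were punctured from the follicles of female Sprague-Dawley rats aged 24 to 25 days, 48 h after the animals were given pregnant mare's serum gonadotropin, then pooled and cultured. There were 3 groups. Cells infected with an adenovirus carrying NFIL3 and stimulated (Ad-NFIL3 + FSK/PMA) were set against cells infected with a green fluorescent protein virus and stimulated (Ad-GFP + FSK/PMA), and the GFP virus without stimulation was the control (Ad-GFP). All 3 groups thus carried an adenovirus, given at 50 pfu per cell for 2 h. At 24 h after infection the stimulated cells received, for 6 h, 10 uM forskolin (FSK), which activates adenylyl cyclase, and 20 nM phorbol 12-myristate 13-acetate (PMA), which activates protein kinase C. Per the labels the pair of agents stands in for the ovulatory hormone hCG. NFIL3 is a bZIP factor that mostly represses the genes it binds. Each group had 1 Affymetrix rat array, hybridised with RNA pooled from 3 experiments, so no test is possible and no p-value is given; NFIL3 virus without the stimulus was not analysed here.

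Actin monomers assemble into filaments that tropomyosins, caldesmon and calponins coat, that alpha-actinins and filamin crosslink, and that non-muscle myosin II pulls on. Filaments end at adhesion plaques built of talin, vinculin, paxillin and LIM-domain proteins. In many cell types the pool of free actin controls the transcription factor SRF through its cofactors of the MRTF family, and tension on the filaments controls YAP and TAZ, which act through TEAD factors; several of the genes below are known targets of these factors. Granulosa cells in culture are known to round up when cAMP rises, with loss of actin stress fibres.

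Values are MAS5 signals, a brightness per probe set on a linear scale. Signals below a floor of 126, the median of the whole table, were not read; a gene counts as measured in a comparison if either array lies above it, and a difference with 1 array below it is a bound. A gene is represented by its brightest probe set, and 2-fold, a log2 difference of 1, is the limit used for counts. The median signal of an array was 136 with Ad-NFIL3 + FSK/PMA, 115 with Ad-GFP + FSK/PMA and 127 with Ad-GFP. Nfil3 itself had signals of 5882 with Ad-NFIL3 + FSK/PMA, 1321 with Ad-GFP + FSK/PMA and 564 with Ad-GFP. For scale, the brightest pair of measured probe sets of the same gene disagreed with a robust SD per difference of 0.33 over 2549 genes for FSK/PMA and 0.23 over 2500 genes for NFIL3, on the log2 scale; this leaves out variation between cultures.

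The cell type was read from marker genes. Of 8 granulosa cell markers on the array all 8 were measured, among them Foxl2, with signals of 1101, 1361 and 4616, and Inha, with signals of 18604, 29911 and 26489, on the Ad-NFIL3 + FSK/PMA, Ad-GFP + FSK/PMA and Ad-GFP arrays in that order. The summed signal of the 8 was 32280, 59014 and 74110. By 2-fold, 1 was higher and 4 lower with FSK/PMA, and 0 higher and 3 lower with NFIL3. Over all genes these shares were 7.44% and 11.4% with FSK/PMA and 1.34% and 0.958% with NFIL3. These markers thus move with the groups, and their part in the differences below was not tested. Smooth muscle and pericyte markers were mostly unmeasured: 2 of 8 were measured in the FSK/PMA comparison and 1 of 8 in the NFIL3 comparison, with Des and Actg2 below the floor on every array. Their summed signal was 719, 750 and 1301 in the same order, most of it from Myocd and Smtn. Myocd, a cofactor of SRF known from cardiac and smooth muscle, had signals of 112, 109 and 816, at least 6.48-fold lower with FSK/PMA. The theca enzyme gene Cyp17a1 and the theca peptide gene Insl3 were below the floor on all arrays, at most 40.2 and 46.2. They belong to a list of 8 theca and stroma markers, of which 4 were measured for FSK/PMA and also 4 for NFIL3. Its members Col3a1, Dcn and Col1a2 lay above the floor on every array. Their signals were 341, 331 and 395, then 481, 196 and 201, then 161, 136 and 165, with arrays ordered as before. Of 4 leukocyte markers Cd68 and Cd14 were measured, with a summed signal of the list of 1957, 1796 and 842, while Ptprc and Itgam were below the floor; of 3 endothelial markers Kdr was measured and Pecam1 and Tek were not.

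**Figure D1:**
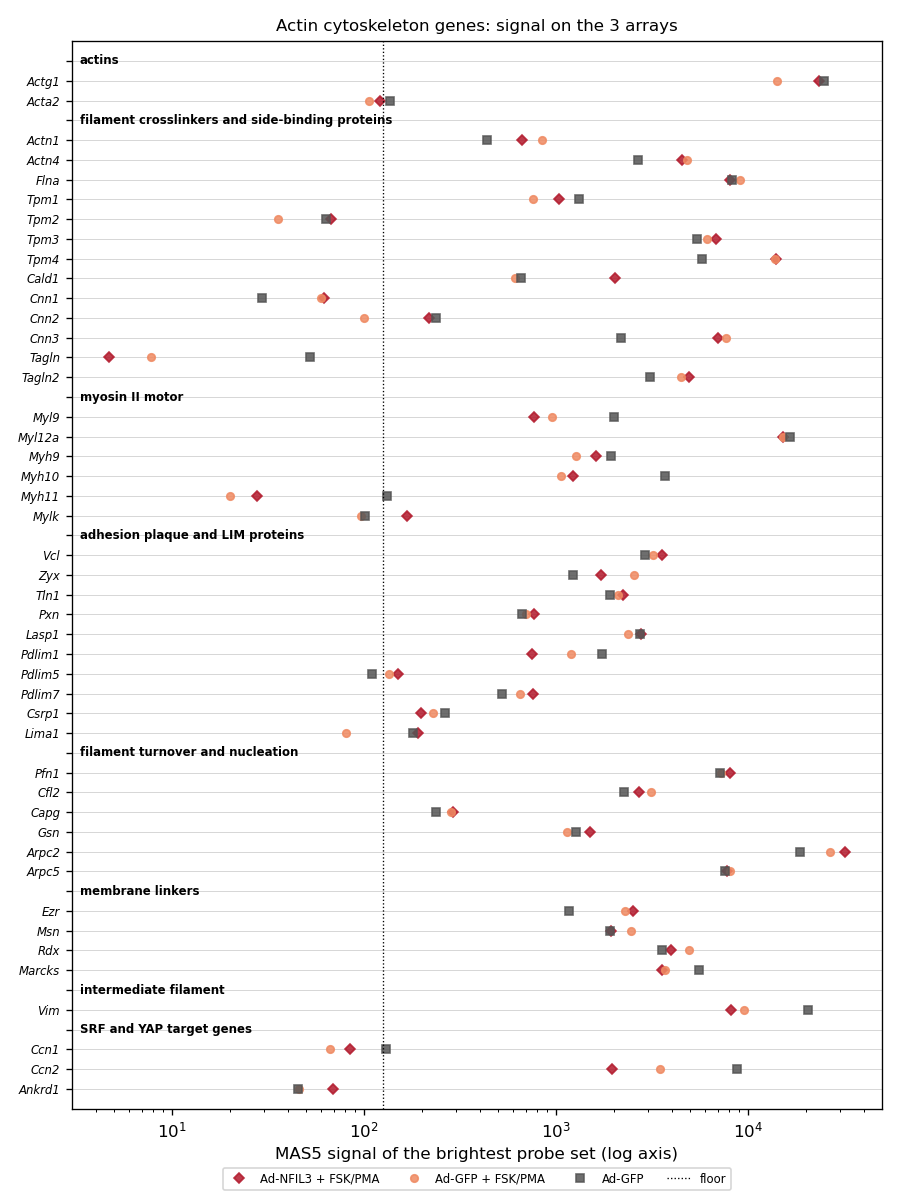
MAS5 signal (log axis) of the brightest probe set of each of the 45 genes, by role, with 1 point for each array and the floor of 126 as a dotted line. Tpm2, Cnn1, Tagln and Ankrd1 lie below the floor on all 3 arrays, and most other genes lie well above it.

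The first comparison set Ad-GFP + FSK/PMA against Ad-GFP and asked how the cytoskeletal genes differ after the stimulus. Cnn3, Tpm4 and Zyx were at least 2-fold higher, and Myh10, Ccn2, Vim and Myl9 were at least 2-fold lower. The largest differences were those of Cnn3, calponin 3, 3.51-fold higher, and Myh10, a non-muscle myosin heavy chain, 3.49-fold lower. Of 40 measured members, 3 passed 2-fold upwards, where 7.44% of all 9395 measured genes did, and 4 passed it downwards, where 11.4% of all genes did. The counts over all genes were 699 higher and 1072 lower, and 856 higher and 852 lower with arrays scaled to a common median, where 5 members were higher and 2 lower. The members past the limit made up 17.5% of those measured, near the 18.9% of all genes, so the list as a whole did not stand out by its number of differing genes. The median log2 difference of the members was 0.04, beside -0.10 for all measured genes.

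The second comparison set Ad-NFIL3 + FSK/PMA against Ad-GFP + FSK/PMA and asked which of these genes differ when NFIL3 is overexpressed in stimulated cells. Cald1, caldesmon, was 3.30-fold higher, and no other member reached 2-fold in either direction. Of 38 measured members, 1 passed 2-fold upwards, where 1.34% of all 9397 measured genes did, and 0 passed it downwards, where 0.958% of all genes did. Over all genes 126 were higher and 90 lower, against 48 and 190 with arrays scaled to a common median and 92 and 111 after quantile normalisation; Cald1 stayed past 2-fold under both, and with the common median Ccn2 passed it downwards. The median log2 difference was 0.11 for the members and 0.03 for all genes. The third pairing, Ad-NFIL3 + FSK/PMA against Ad-GFP, uses arrays of both other comparisons and so adds no independent evidence. In it 4 of 41 measured members, Cnn3, Cald1, Tpm4 and Ezr, passed 2-fold upwards (6.52% of all 9647 genes did), and 5, Ccn2, Myh10, Myl9, Vim and Pdlim1, passed it downwards (9.05% of all genes did).

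**Figure D2:**
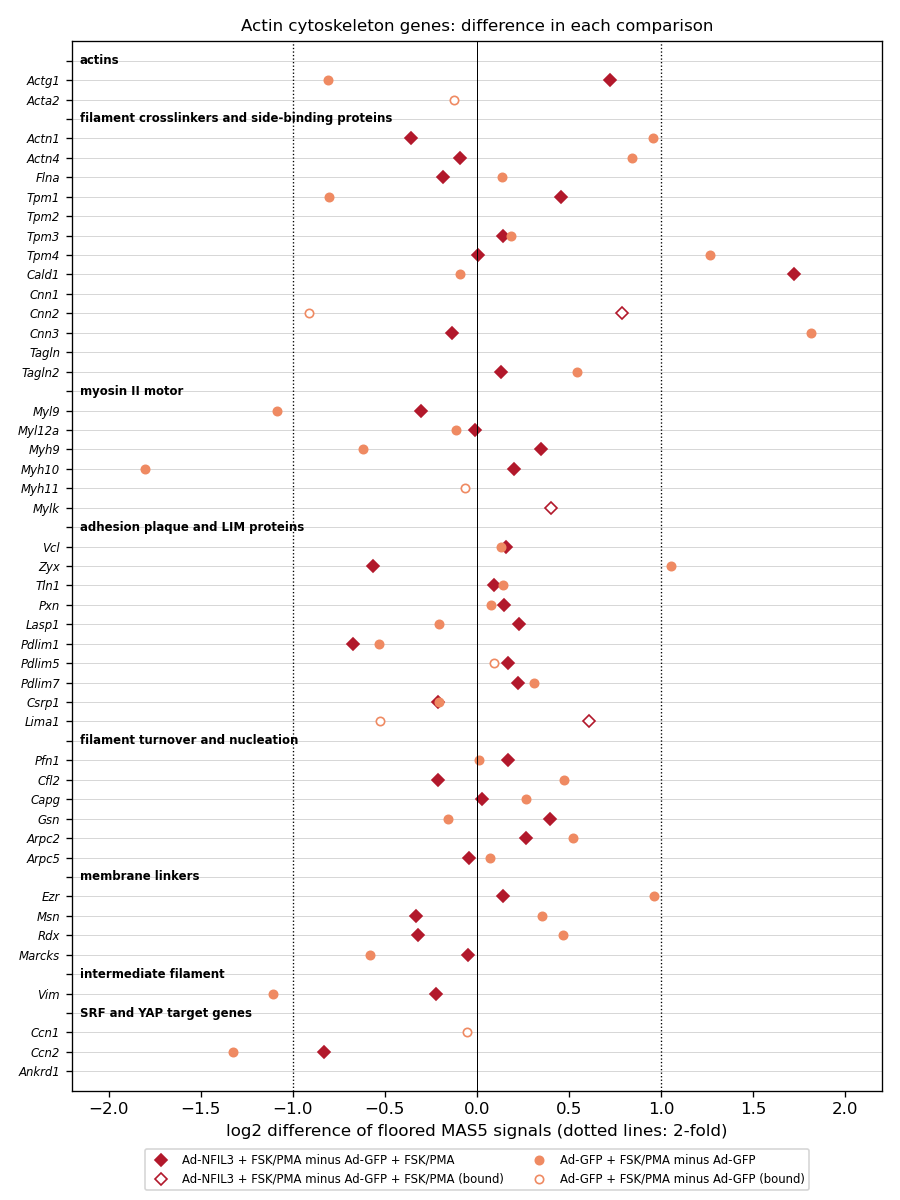
Log2 difference of floored signals of each measured gene, by role, with diamonds for Ad-NFIL3 + FSK/PMA minus Ad-GFP + FSK/PMA and circles for Ad-GFP + FSK/PMA minus Ad-GFP; open symbols are bounds and dotted lines mark 2-fold. Cald1 is the single diamond past 2-fold, while circles of 7 genes lie past it. Both comparisons share the Ad-GFP + FSK/PMA array, so an error on that array moves the 2 symbols of a gene in opposite directions.

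Of the actins, Actg1, cytoplasmic gamma-actin, had signals of 23352 with Ad-NFIL3 + FSK/PMA, 14170 with Ad-GFP + FSK/PMA and 24855 with Ad-GFP. It was lowest on the Ad-GFP + FSK/PMA array and nearly level on the other arrays, with log2 differences of -0.81 for FSK/PMA and 0.72 for NFIL3. The FSK/PMA difference of Actg1 was -1.07 after quantile and -1.10 after cyclic loess normalisation, past 2-fold, and -0.49 without probe sets that match several transcripts. That last setting left only the dimmer probe set of Actg1, which differed by -0.49 and 0.75 in these comparisons. Its signals were 211 with Ad-NFIL3 + FSK/PMA, 126 with Ad-GFP + FSK/PMA and 177 with Ad-GFP, near the floor. The actins are nearly identical as proteins, and whether a probe set of Actg1 also binds transcripts of another actin was not tested. The array's own rat beta-actin control probe sets, which the annotation gives no gene here, had the same order. Their 3' end had signals of 28834 with Ad-NFIL3 + FSK/PMA, 20579 with Ad-GFP + FSK/PMA and 29597 with Ad-GFP. The 5' end had signals of 9364, 5408 and 11361 in the same order, which gives 3' to 5' ratios of 3.08, 3.80 and 2.61. The ratio, a sign of RNA or labelling quality, was thus highest on the array where the actin signals were lowest; its part in the result was not tested. For the Gapdh controls the corresponding ratios were 1.14, 1.15 and 1.28. Acta2, smooth muscle alpha-actin, had signals of 121, 106 and 137, just above the floor on the Ad-GFP array and below it on the others.

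Calponin 2 and eplin, like Actg1, were lowest on the Ad-GFP + FSK/PMA array. The FSK/PMA and NFIL3 comparisons share this array, so an error on it would move their differences in opposite directions. This was not tested. Cnn2, an actin-binding protein of the calponin family, had signals of 218 with Ad-NFIL3 + FSK/PMA, 99.4 with Ad-GFP + FSK/PMA and 237 with Ad-GFP. Its differences were bounds, at least 1.88-fold lower with FSK/PMA and at least 1.73-fold higher with NFIL3. Lima1, which encodes the filament-bundling LIM protein eplin, had signals of 192, 80.9 and 181, at least 1.44-fold lower and at least 1.53-fold higher. With the floor at 62.9 in place of 126 both genes passed 2-fold in each comparison, with log2 differences of -1.25 and 1.13 for Cnn2 and of -1.16 and 1.25 for Lima1. A second probe set of Lima1 lay below the floor.

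Promoters were read for 38 of the 45 genes, as the 250 bases before the start site in RefSeq (build GRCr8), and 6 short motifs were searched on both strands. The CArG box, the SRF binding element, was present in 3 of 44 promoters of the members and in 1.5% of all 33469 promoters. The 3 genes were Actg1, Cnn2 and Lima1, whose signals are given above. Tpm1 and Myh9, with no CArG box in the promoters read, were among other members that were lowest on the Ad-GFP + FSK/PMA array. Their signals with Ad-NFIL3 + FSK/PMA, Ad-GFP + FSK/PMA and Ad-GFP were 1040, 758 and 1323 for Tpm1 and 1610, 1266 and 1942 for Myh9. The pattern was thus not particular to members with this motif. A match of letters is not a site shown to be bound, and the values and promoters were set side by side after the values had been seen. The promoters of Actg1, Cnn2 and Lima1 are shown because these are the members with a CArG box, printed in capitals. Its first base lies at position -90 from the start of Actg1, -71 from that of Cnn2 and -209 from that of Lima1.
Actg1, GRCr8 chr10:106120952-106121201, minus strand: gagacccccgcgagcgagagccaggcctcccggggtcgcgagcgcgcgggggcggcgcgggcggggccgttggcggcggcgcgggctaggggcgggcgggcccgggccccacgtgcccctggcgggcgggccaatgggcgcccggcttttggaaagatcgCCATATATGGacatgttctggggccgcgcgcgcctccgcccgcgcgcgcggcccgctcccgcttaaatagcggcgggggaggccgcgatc
Cnn2, GRCr8 chr7:10370313-10370562, minus strand: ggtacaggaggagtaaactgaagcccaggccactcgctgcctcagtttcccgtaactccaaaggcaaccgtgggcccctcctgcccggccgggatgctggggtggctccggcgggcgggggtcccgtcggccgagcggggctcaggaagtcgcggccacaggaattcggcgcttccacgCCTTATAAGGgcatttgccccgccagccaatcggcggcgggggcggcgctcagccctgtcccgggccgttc
Lima1, GRCr8 chr7:132880344-132880593, minus strand: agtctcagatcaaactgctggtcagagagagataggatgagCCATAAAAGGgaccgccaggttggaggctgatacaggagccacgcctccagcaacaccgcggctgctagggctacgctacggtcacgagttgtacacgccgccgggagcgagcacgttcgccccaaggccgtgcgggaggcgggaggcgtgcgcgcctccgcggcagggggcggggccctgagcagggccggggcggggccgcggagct

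Among the proteins that crosslink and coat filaments, 10 of 13 genes were measured in the first 2 comparisons. Cnn3, calponin 3, an actin-binding regulator of contractility, had signals of 7011 with Ad-NFIL3 + FSK/PMA, 7693 with Ad-GFP + FSK/PMA and 2189 with Ad-GFP. Both stimulated arrays were high and close to each other, with log2 differences of 1.81 for FSK/PMA and -0.13 for NFIL3. It ranked 213 from the highest of 9395 genes in the FSK/PMA comparison. Tpm4, a short non-muscle tropomyosin, had signals of 13924, 13846 and 5754 in the same order. It was 2.41-fold higher with FSK/PMA and differed by 0.01 with NFIL3 on the log2 scale. The dimmer probe set of Tpm4 had signals of 5740, 4871 and 1635 and differed by 1.58 and 0.24. Tpm4 thus stood higher on both stimulated arrays by both of its probe sets.

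Tropomyosins encoded by other genes differed in other ways. Tpm1, which yields muscle and high molecular weight non-muscle forms by splicing, had signals of 1040 with Ad-NFIL3 + FSK/PMA, 758 with Ad-GFP + FSK/PMA and 1323 with Ad-GFP. Its log2 differences were -0.80 for FSK/PMA and 0.46 for NFIL3. Of its 7 probe sets 3 others were measured in the FSK/PMA comparison, with differences of -0.54, -0.34 (a bound) and 0.00, and the same 3 differed by 0.43, 0.74 (a bound) and 0.55 with NFIL3. Tpm3, whose probe sets numbered 12, differed by 0.19 and 0.14 by its brightest probe set, and its measured probe sets ranged from -0.38 to 0.63 for FSK/PMA and from -0.35 to 0.73 for NFIL3. That range was the widest of any member with several measured probe sets in both comparisons. Tpm2, a muscle-type tropomyosin, stayed below the floor on all arrays. The promoter of Tpm4 is shown because Tpm4 is the tropomyosin with the largest difference; TGACG, the core of the cAMP response element, occurs in it on each strand, and capitals mark these. TGACG was found in 10 of 44 promoters of members and in 18.2% of all promoters, and the full element TGACGTCA, which contains it, was in 0 of 44 and in 1.59% of all.
Tpm4, GRCr8 chr16:17732484-17732733, minus strand: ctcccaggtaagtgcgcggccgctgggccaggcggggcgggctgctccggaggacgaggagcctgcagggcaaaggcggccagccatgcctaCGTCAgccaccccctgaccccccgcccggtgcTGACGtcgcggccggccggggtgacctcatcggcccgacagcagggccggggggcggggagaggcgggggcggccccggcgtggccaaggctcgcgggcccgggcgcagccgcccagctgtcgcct

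Cald1, caldesmon, binds actin, tropomyosin and myosin and restrains the myosin motor. Its signals were 2023 with Ad-NFIL3 + FSK/PMA, 614 with Ad-GFP + FSK/PMA and 654 with Ad-GFP. The NFIL3 array stood apart, and the Ad-GFP arrays differed by -0.09 on the log2 scale. The dimmer measured probe set of Cald1 had signals of 715, 345 and 286, a log2 difference of 1.05 for NFIL3, and the remaining probe set was below the floor on all arrays. When the log2 values of all 3 probe sets were averaged the NFIL3 difference was 0.92, below the limit. By the brightest probe set Cald1 ranked 7 from the highest of 9397 genes. Dcn, a stroma marker, was also higher on the NFIL3 array, with signals of 481, 196 and 201. Of the other measured theca and stroma markers, Col3a1 differed by 0.05 and Col1a2 by 0.25. Pdgfra had signals of 149, 67.1 and 120, above the floor on the NFIL3 array alone, so its difference of 0.24 is a lower bound. The summed signal of the 8 markers of that list was 1410, 961 and 1133. The part of stroma cells in the Cald1 difference was not tested, and in bulk RNA a change in the share of cells of a type cannot be told apart from a change in RNA per cell.

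The promoters at both listed starts of Cald1 are shown because it is the member that differed most with NFIL3. The NFIL3-type motif TTANNTAA was searched in them and in the other members; these letters were found in 1 of 44 promoters of members, that of Ccn1, and in 5.32% of all promoters. Capitals mark the TEAD-type motif CATTCC, which reads GGAATG on the strand shown, and TGACG, which reads CGTCA.
Cald1, GRCr8 chr4:64233006-64233255, plus strand: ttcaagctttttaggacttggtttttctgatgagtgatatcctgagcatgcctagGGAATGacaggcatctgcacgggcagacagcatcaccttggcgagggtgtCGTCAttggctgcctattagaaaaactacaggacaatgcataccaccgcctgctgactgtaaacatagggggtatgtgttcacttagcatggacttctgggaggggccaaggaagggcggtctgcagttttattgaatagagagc
Cald1, GRCr8 chr4:64343465-64343714, plus strand: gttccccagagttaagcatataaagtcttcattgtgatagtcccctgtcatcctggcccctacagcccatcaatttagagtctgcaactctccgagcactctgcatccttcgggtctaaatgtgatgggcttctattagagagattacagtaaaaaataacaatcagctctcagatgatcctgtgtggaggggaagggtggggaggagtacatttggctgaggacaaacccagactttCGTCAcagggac

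Of the other crosslinkers, Actn1, an alpha-actinin of stress fibres and adhesions, had signals of 663 with Ad-NFIL3 + FSK/PMA, 848 with Ad-GFP + FSK/PMA and 437 with Ad-GFP. Its difference of 0.96 for FSK/PMA lay just under the limit, but was 1.09 with arrays scaled to a common median, 1.04 after quantile and 1.09 after cyclic loess normalisation, and its dimmer probe set differed by 0.91. Actn4, the alpha-actinin of lamellae, differed by 0.84 for FSK/PMA and -0.09 for NFIL3. Flna, filamin A, differed by 0.14 and -0.18, and Tagln2, transgelin 2, by 0.55 and 0.13. The smooth muscle genes Cnn1, calponin 1, and Tagln, transgelin, stayed below the floor, with signals of at most 61.6 and 52.2.

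Of the myosin II motor, 2 of 5 measured genes, Myh10 and Myl9, were at least 2-fold lower with FSK/PMA, where 11.4% of all genes were; the list is too short to set its share against that. Myh10, the heavy chain of non-muscle myosin IIB, had signals of 1225 with Ad-NFIL3 + FSK/PMA, 1064 with Ad-GFP + FSK/PMA and 3711 with Ad-GFP. Both stimulated arrays were low, and Myh10 ranked 231 from the lowest of 9395 genes. Its NFIL3 difference was 0.20. Myl9, a regulatory light chain whose phosphorylation turns on the motor, had signals of 768, 948 and 2016 in the same order, 2.13-fold lower with FSK/PMA, and differed by -0.30 with NFIL3. With arrays scaled to a common median the FSK/PMA difference of Myl9 was -0.95, under the limit.

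Among the other myosin genes, Myh9, the heavy chain of myosin IIA, differed by -0.62 for FSK/PMA and 0.35 for NFIL3, and Myl12a, the other regulatory light chain measured, by -0.11 and -0.01. Mylk, the kinase of the regulatory light chain, had signals of 167, 96.2 and 101, so it was above the floor on the NFIL3 array alone, at least 1.32-fold higher there. Myh11, the smooth muscle heavy chain, had signals of 27.6, 20.1 and 131, just above the floor with Ad-GFP and below it on the other arrays. Its FSK/PMA difference is a bound, at least 1.04-fold lower. With the floor at 62.9 in place of 126 that bound passed 2-fold. The AP-1 type motif TGANTCA was found in 2 of 44 promoters of members, those of Myh9 and Mylk, and in 6.34% of all promoters. The promoter of Myh10 holds a CATTCC motif, in capitals, and is shown because Myh10 was the most lowered member with FSK/PMA.
Myh10, GRCr8 chr10:53893014-53893263, plus strand: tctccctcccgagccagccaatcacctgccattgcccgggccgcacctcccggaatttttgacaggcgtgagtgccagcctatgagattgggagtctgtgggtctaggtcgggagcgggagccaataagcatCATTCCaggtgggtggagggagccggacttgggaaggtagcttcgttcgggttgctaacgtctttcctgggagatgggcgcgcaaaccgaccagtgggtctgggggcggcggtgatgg

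**Figure D3:**
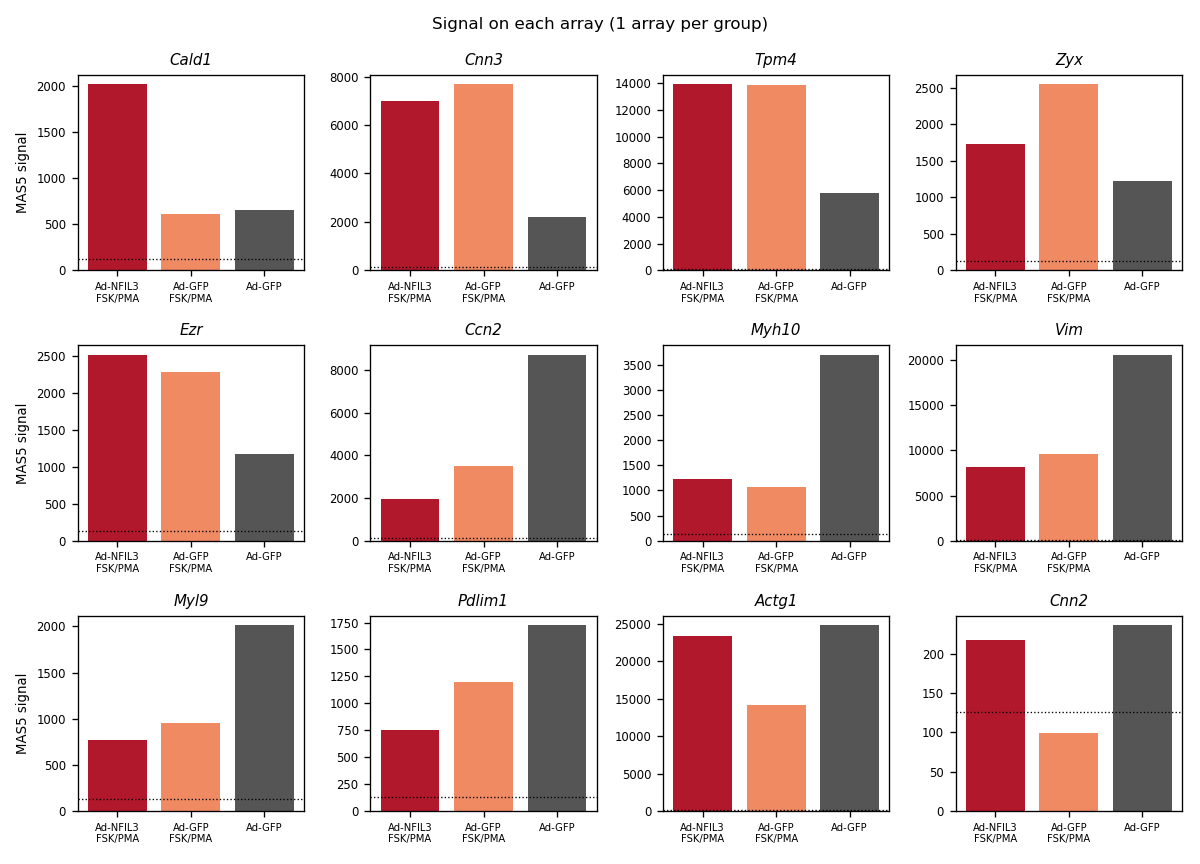
MAS5 signal on each array (linear axes from 0, 1 bar for each array, dotted line at the floor of 126) of the 10 genes past 2-fold in any comparison, with Actg1 and Cnn2. Cald1 is high on the Ad-NFIL3 + FSK/PMA array alone, Cnn3, Tpm4 and Ezr are high on both stimulated arrays, and Ccn2, Myh10, Vim and Myl9 are low on both.

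At adhesion plaques, 10 genes were measured and most were close to level. Zyx, zyxin, a LIM protein recruited to filaments under tension, had signals of 1724 with Ad-NFIL3 + FSK/PMA, 2548 with Ad-GFP + FSK/PMA and 1227 with Ad-GFP. It was 2.08-fold higher with FSK/PMA and differed by -0.56 with NFIL3. Pdlim1, a PDZ and LIM protein that binds alpha-actinin, had signals of 750, 1197 and 1728 in the same order. Its log2 differences were -0.53 for FSK/PMA and -0.67 for NFIL3, so that Ad-NFIL3 + FSK/PMA was 2.30-fold lower than Ad-GFP. In contrast the talin gene Tln1 differed by 0.14 and 0.09, the paxillin gene Pxn by 0.07 and 0.15, and Lasp1 by -0.20 and 0.23. The dimmer probe set of Lasp1 differed by 0.21 for FSK/PMA and 0.09 for NFIL3. Vcl, vinculin, which links talin to actin, differed by 0.13 and 0.16 by its brightest probe set, whereas one dimmer probe set of Vcl differed by 0.86 for FSK/PMA and another by -0.05. Pdlim7 differed by 0.31 and 0.22, and by -0.06 and 0.37 by its dimmer probe set. Csrp1 differed by -0.20 and -0.21, and Pdlim5 had signals between 110 and 151, near the floor.

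Of the 6 measured genes of filament turnover and nucleation none was past 2-fold in the FSK/PMA or NFIL3 comparison, and their log2 differences ranged from -0.16 to 0.52 for FSK/PMA and from -0.21 to 0.40 for NFIL3. Arpc2, a subunit of the branching complex Arp2/3, had signals of 32082 with Ad-NFIL3 + FSK/PMA, 26713 with Ad-GFP + FSK/PMA and 18578 with Ad-GFP, and its dimmer probe set differed by 0.74 and 0.23. Arpc5, of the same complex, differed by 0.07 and -0.05, and Pfn1, profilin 1, by 0.01 and 0.17. Gsn, the severing protein gelsolin, differed by -0.16 and 0.40, and Capg, a capping protein, by 0.27 and 0.03. Cfl2, a cofilin, differed by 0.47 and -0.21, but its dimmer probe set differed by -0.24 and 0.54, so its direction was not settled in either comparison.

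Membrane linkers of the ezrin, radixin and moesin family had positive differences with FSK/PMA, none past 2-fold. Ezr, ezrin, had signals of 2525 with Ad-NFIL3 + FSK/PMA, 2288 with Ad-GFP + FSK/PMA and 1174 with Ad-GFP. Its difference of 0.96 for FSK/PMA was just under the limit and was 1.10 with arrays scaled to a common median, and Ad-NFIL3 + FSK/PMA was 2.15-fold higher than Ad-GFP. Rdx, radixin, differed by 0.47 by its brightest probe set and by 0.38 to 0.50 over all 5 of its probe sets. Msn, moesin, differed by 0.36 and by 0.97 by its dimmer probe set. With NFIL3, Msn and Rdx differed by -0.33 and -0.32 by the brightest probe set. However, the dimmer probe set of Msn differed by 0.02, and 2 probe sets of Rdx differed by 0.17 and 0.42. Marcks, a protein kinase C substrate that ties actin to the membrane, differed by -0.58 and -0.05. Its 5 measured probe sets ranged from -0.58 to 0.22 for FSK/PMA and from -0.22 to 0.38 for NFIL3.

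Over the 14 members with more than 1 measured probe set, all probe sets of a gene had the same direction for 6 genes with FSK/PMA and for 9 genes with NFIL3. Over all genes compared, the brightest pair had the same direction in 75.2% with FSK/PMA and in 63.7% with NFIL3. These shares read only the brightest pair, whereas the counts of members required every measured probe set of a gene to agree. The member counts therefore cannot be set against them.

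**Figure D4:**
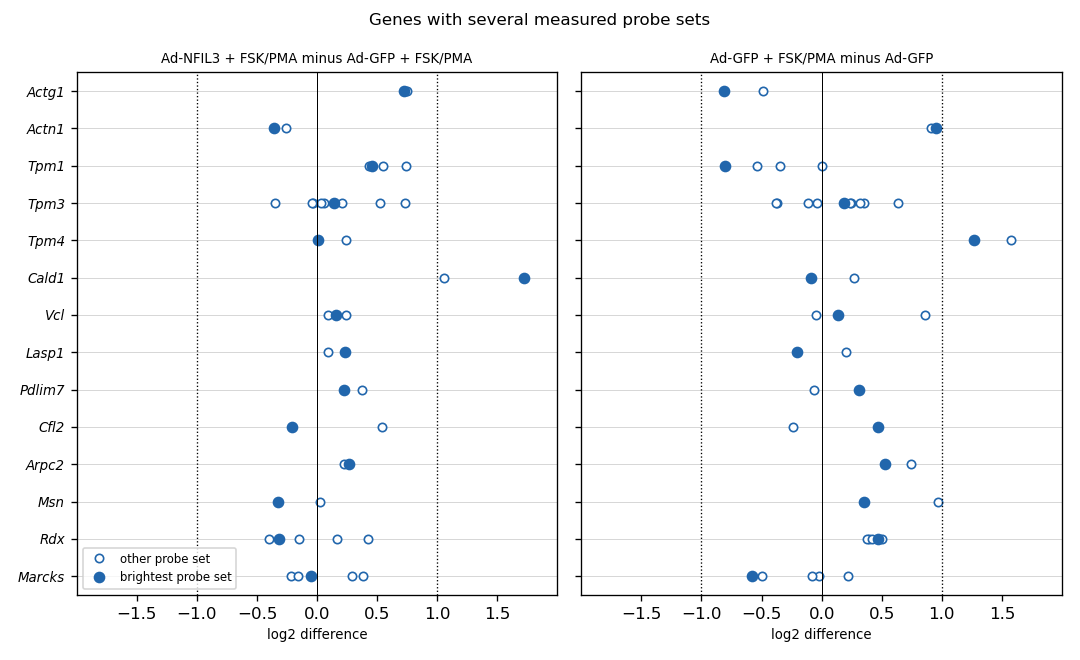
Log2 difference of every measured probe set of the 14 genes that had more than 1, for NFIL3 (left) and FSK/PMA (right); filled points are the brightest probe sets and dotted lines mark 2-fold. The probe sets of Tpm4, Actn1 and Rdx lie together for FSK/PMA, those of Cald1 lie apart but both past 2-fold for NFIL3, and those of Tpm3 spread on both sides of 0.

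Vim, vimentin, the intermediate filament protein of mesenchymal and granulosa cells, had signals of 8206 with Ad-NFIL3 + FSK/PMA, 9565 with Ad-GFP + FSK/PMA and 20645 with Ad-GFP. It was 2.16-fold lower with FSK/PMA and differed by -0.22 with NFIL3, so both stimulated arrays were low. With arrays scaled to a common median its FSK/PMA difference was -0.97, under the limit. Of the other intermediate filament and tubulin genes listed, 5 of 10 on the array were measured, with 1 higher and 0 lower by 2-fold with FSK/PMA and none past it with NFIL3. With FSK/PMA 7.44% of all genes were higher and 11.4% lower, and the list is too short to set its shares against those. Tubb6, a beta-tubulin, had signals of 1989, 2175 and 116, at least 17.3-fold higher with FSK/PMA. Lmna, the lamin A and C gene, differed by 0.70 and 0.45, and Krt8, a keratin, by -0.43 and 0.22.

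Ccn2, a secreted matrix protein also known as connective tissue growth factor and a standard target gene of YAP and TEAD, had signals of 1964 with Ad-NFIL3 + FSK/PMA, 3494 with Ad-GFP + FSK/PMA and 8738 with Ad-GFP. It was 2.50-fold lower with FSK/PMA and a further 1.78-fold lower with NFIL3, and 4.45-fold lower with Ad-NFIL3 + FSK/PMA than with Ad-GFP. It ranked 159 from the lowest of 9397 genes in the NFIL3 comparison, with a log2 difference of -0.83. That difference was -1.07 with arrays scaled to a common median, which lowered all genes in this comparison. It was -0.74 after quantile and -0.75 after cyclic loess normalisation, under the limit. Ccn1, its close relative, was just above the floor with Ad-GFP, at 131, and below it on the other arrays. Ankrd1, another YAP target, stayed below the floor. The TEAD-type motif CATTCC was found in 13 of 44 promoters of members and in 12.1% of all promoters. The genes were Acta2, Arpc2, Cald1, Ccn1, Ccn2, Flna, Myh10, Mylk, Pfn1, Tagln2, Tpm1, Vcl and Zyx. Members with the motif thus included Zyx, which was higher with FSK/PMA, and Pfn1, which was close to level. The promoter of Ccn2 is shown because it holds 3 of them, in capitals, read as GGAATG on the strand shown; they begin at positions -166, -101 and -92 from the start.
Ccn2, GRCr8 chr1:22624615-22624864, minus strand: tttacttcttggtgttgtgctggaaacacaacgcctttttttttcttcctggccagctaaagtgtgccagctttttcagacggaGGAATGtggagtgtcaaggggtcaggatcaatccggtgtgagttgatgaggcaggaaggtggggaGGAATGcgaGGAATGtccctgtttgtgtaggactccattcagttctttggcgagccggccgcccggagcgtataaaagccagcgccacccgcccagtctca

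Further genes of the pathways that regulate or build these structures were read from wider lists. Of the regulators of SRF and YAP only some genes are given here, and they are not all of those with the largest differences. Amotl2, an angiomotin family gene and YAP target, had signals of 339 with Ad-NFIL3 + FSK/PMA, 251 with Ad-GFP + FSK/PMA and 1862 with Ad-GFP, 7.43-fold lower with FSK/PMA. Both stimulated arrays were low. Wwtr1, which encodes TAZ, differed by 0.83 for FSK/PMA and -0.05 for NFIL3 on the log2 scale. With NFIL3 the receptor kinase gene Axl differed by 0.77, Tead1 by 0.46 and the LIM kinase gene Limk2 by 0.44. Srf itself differed by 0.38 and 0.30, and its cofactor gene Mrtfa by -0.03 and -0.08.

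Of 29 other measured actin-binding and turnover genes, 0 passed 2-fold upwards and 2 downwards with FSK/PMA, with a median of 0.00. Over all genes 7.44% passed it upwards and 11.4% downwards with FSK/PMA, and 1.34% and 0.958% with NFIL3. Pfn2, profilin 2, had signals of 1386 with Ad-NFIL3 + FSK/PMA, 1945 with Ad-GFP + FSK/PMA and 9467 with Ad-GFP, 4.87-fold lower with FSK/PMA, whereas Pfn1 differed by 0.01 on the log2 scale. Fhl1, a LIM protein, was 2.32-fold lower, and Coro1c and Cap1 differed by 0.95 and -0.87. None was past 2-fold with NFIL3, where the largest differences were those of the palladin gene Palld, 0.95, Synpo, 0.70, Flnc, at least 0.64, and Fhl2, 0.49.

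Of 12 adhesion plaque genes, 1 was higher and 2 were lower by 2-fold with FSK/PMA, where 7.44% and 11.4% of all genes were. The list is too short to set its shares against those. Itga5, the integrin chain that pairs with beta 1 to bind fibronectin, had signals of 224 with Ad-NFIL3 + FSK/PMA, 125.6 with Ad-GFP + FSK/PMA, just below the floor, and 339 with Ad-GFP, at least 2.70-fold lower. Tns3, a tensin, was 2.43-fold lower and Bcar1, the p130Cas scaffold, was 2.35-fold higher, and Src differed by -0.47. With NFIL3 1 gene was past 2-fold: Tns1, tensin 1, had signals of 471, 217 and 199, 2.17-fold higher. Over all genes 1.34% were higher by 2-fold with NFIL3. Tns3 and Itga5 were 1.78-fold and at least 1.78-fold higher with NFIL3, and Src was 1.22-fold lower.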

How the data were processed

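RNA of cultured rat granulosa cells was hybridised to 3 Affymetrix arrays, 1 for each group, from 5 ug of RNA pooled over 3 experiments, per the labels. What the authors deposited is a linear intensity for each probe set, the MAS5 signal, per the submitters' processing notes; the MAS5 version was not given in the sources used here. All columns had a 2% trimmed mean of 500.2, so no further scaling was applied. Detection calls were not used here. Signals were floored at 126 and log2 was taken. Gene names came from the platform annotation, with symbols updated by Entrez ID from the RefSeq table of GRCr8 (20764 of 20832 probe sets with 1 symbol matched; 436 had several and 9831 none). An entry that gave Myh9 under 2 gene IDs counted as several. Promoters came from RefSeq, build GRCr8, and 107 of 117 entries of the wider lists and marker lists were matched.

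With 1 array per group there is no replicate error, the number of arrays limits the precision, and p-values are not given. All members may be named; those past 2-fold in any comparison, and those with a CArG box, are given on every array. From the wider lists up to 4 genes with the largest differences per comparison are named, and Srf and Mrtfa were added after their values were seen. Part of 1 wider list is not reported here. The members, lists and motifs were chosen with earlier results of these data known. Alternatives were scaling to a common median, quantile and cyclic loess normalisation (limma 3.58.1 in R 4.3.3), other floors, and other handling of probe sets. The code (Python 3.11.15, pandas 2.3.3) was tested on simulated data in which genes had been given known folds.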

Additional observations from a re-analysis of the deposited data

How the results depend on the processing

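No paired analysis was possible because each group had 1 array. Over 7 alternative settings, 55 medians and counts of members stayed within 0.1 on the log2 scale or within 1.5 times the value reported, and 8 did not. With arrays scaled to a common median, the FSK/PMA median was 0.18 with 5 members higher and 2 lower, and the NFIL3 median was -0.13 with 1 member lower; this scaling moved the median of all genes from -0.10 to 0.03 for FSK/PMA and from 0.03 to -0.20 for NFIL3, so it shifts members and other genes alike. With the floor at 62.9 in place of 126, 7 of 42 measured members were lower for FSK/PMA and 3 of 42 were higher for NFIL3. At that floor 1308 of 11442 measured genes were lower for FSK/PMA and 347 of 11638 were higher for NFIL3. With the mean of probe sets 0 members were higher for NFIL3. Of 17 values past 2-fold over the 3 comparisons all 17 kept their sign in all 7 settings and 13 stayed past 2-fold. The exceptions were Cald1 in the 2 comparisons with Ad-NFIL3, and Myl9 and Vim for FSK/PMA. Cald1 was at 0.92 and 0.98 with the mean of probe sets, where a probe set below the floor enters as 0. Myl9 and Vim were at -0.95 and -0.97 with the common median. The third comparison shares its arrays with both others, so its values among the 17 are not independent of theirs. For FSK/PMA, Actn1 and Actg1 passed 2-fold after quantile and cyclic loess normalisation, and Actn1 and Ezr with the common median. For FSK/PMA all genes numbered 699 higher and 1072 lower, against 856 and 852 with the common median. Counts of all genes in the NFIL3 comparison were 126 higher and 90 lower, against 48 and 190 with the common median, 92 and 111 with quantile normalisation and 347 and 157 with the floor at 62.9. Signals near the floor, such as those of Cnn2, Lima1, Acta2 and Mylk, bound their differences only.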

Other observations

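The promoter motifs were also read over all genes with a listed promoter. For FSK/PMA, 256 measured genes with the full cAMP response element TGACGTCA had a median log2 difference of 0.11, beside -0.10 for 7952 genes. Of the 256, 24 (9.38%) were at least 2-fold higher and 12 (4.69%) at least 2-fold lower, beside 7.32% and 11.2% of the 7952. The 110 measured genes with a CArG box had a median of -0.17, and 8 (7.27%) were higher and 17 (15.5%) lower by 2-fold. The 807 measured genes with CATTCC had a median of -0.09, and 69 (8.55%) were higher and 94 (11.6%) lower, near the shares of the 7952. The 365 measured genes with the AP-1 type motif TGANTCA had a median of -0.05, and 41 (11.2%) were higher and 31 (8.49%) lower. For NFIL3, 108 genes with a CArG box had a median of 0.06, beside 0.03 for 7957 genes, and 810 genes with CATTCC had a median of 0.03. The 232 genes with TTANNTAA had a median of 0.02, with 2 (0.862%) higher and 3 (1.29%) lower by 2-fold. The 376 genes with TGANTCA had a median of 0.05, with 9 (2.39%) higher and 7 (1.86%) lower. Of the 7957 genes, 1.23% were higher and 0.892% lower. These values describe single arrays.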
